A study of Caenorhabditis elegans with 6 samples.

Results

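The genes sqt-1, sqt-2, sqt-3, rol-6, dpy-5, dpy-7, dpy-10, dpy-13, bli-1 and bli-2 encode collagens of the worm cuticle and are named for the body shapes of their mutants, squat, roller, dumpy and blistered. The 10 genes were chosen by name, and 9 of them stood among the 5739 genes of the deposited table. dpy-10 was not listed, which does not show that it was low, since the authors kept genes above a minimum level and the reason for a missing gene is not known. Each member was matched by its WormBase identifier.

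Polysome immunoprecipitation pulls down a tagged ribosomal protein and sequences the messenger RNA bound to those ribosomes. It was applied to 3 wild-type libraries and 3 libraries from worms carrying alg-2(ok304), an allele of the Argonaute gene alg-2, whose protein loads microRNAs, and the comparison asked how the neuronal translatome differs without alg-2. All worms were at the L4 stage, the last larval stage before the adult, and both strains carried RPL-18 under the pan-neuronal rgef-1 promoter from a single-copy insertion, followed by HIS-58::GFP. Each library came from pooled whole animals, and each strain is 1 line. The study's methods describe a FLAG tag and FLAG beads, but its strain list writes HA for the tag of the alg-2(ok304) strain, and the column headers of that group name a knockout of alg-1. The columns were assigned by the strain numbers in their headers, and no value used here settles either point.

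The cuticle is an extracellular coat secreted by the epidermis, the hypodermis in worm anatomy, and it is built anew at each moult mainly from collagens, short proteins with Gly-X-Y repeats that form triple helices. Collagen chains are hydroxylated on proline and folded inside the cell, cut by proteases on their way out and cross-linked in the new cuticle. Different collagens are transcribed in successive waves within each moulting cycle, and some, such as the products of bli-1 and bli-2, belong to the adult cuticle, which is made at the end of L4. The known source of these collagens is the epidermis, not the nervous system.

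The values in the library columns are not read counts. Within a group, library 2 was 1.40 times library 1 in wild type and 1.17 times in alg-2(ok304) in every gene above 0, and library 3 was 1.52 and 2.24 times library 1, so the columns hold 1 fitted level per group multiplied by a factor of each library. They are called modelled reads here. They carry no spread between replicates, so that no error, test or p-value can be given for any member. A statement that a gene was higher or lower compares 2 fitted levels. The fitted totals ran from 4769250 to 17692391 per library, of which ribosomal RNA genes held 97.9% in wild type against 85.1% in alg-2(ok304). As a check of the labels, the modelled reads of alg-2 summed to 16.6 in wild type against 11.1 in alg-2(ok304), those of rpl-18, endogenous and transgenic together, to 66.9 and 317, and rgef-1 was not listed. On the scale set below, the log2 ratio of alg-2 was -2.14, but it turned direction over the scales tried. The check therefore does not settle the labels.

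Because the groups differ in how many reads were left for other genes, a scale between them has to be set. It was estimated from the authors' average levels of genes at 0 in one group, each divided by the modelled reads of the other group. These averages do not come from the fitted values of 1 group alone, since genes at 0 in both groups had unlike averages, from 0.0641 to 3.40 CPM. The lowest quotient was therefore used, a choice made after seeing the data. It put no change at a log2 ratio of 1.56 in modelled reads, alg-2(ok304) over wild type, whereas the median quotient over the same genes put it at 0.15. All log2 ratios below are relative to 1.56. Other scales placed no change between -1.11 and 2.66, a 13.7-fold range, so that a difference of a gene between groups has to be read with that range, whereas the make-up of the 9 genes within a group does not depend on it.

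The 9 listed genes were not displaced in 1 direction. sqt-1, sqt-2 and sqt-3 were 10.5-fold to 15.7-fold lower in alg-2(ok304) than in wild type, while dpy-5, dpy-7 and rol-6 were 3.21-fold to 7.41-fold higher, and these 6 directions were the same on every scale tried. Of the 2659 genes above 0 in both groups, 33.8% were higher and 10.2% lower on every scale, beside 3 of the 9 members in each direction, so the count of higher members is near the share of all genes. dpy-13, bli-1 and bli-2 lay between and turned direction with the scale. With a pseudocount of 0.5 modelled reads, 3 members were at least 2-fold higher in alg-2(ok304), against 57.0% of the 4786 genes above 0 in at least 1 group and 34.4% of the 2659 above 0 in both. At least 2-fold lower were 5 members, against 19.7% and 24.4%. The balance depends on the scale, since the totals of all listed genes gave 5 members higher and 1 lower, and the median quotient 4 higher and 3 lower. The 9 log2 ratios spanned 6.87, from -3.98 to 2.89, with a median of -1.14, beside a median of 0.37 over the 2659 genes. No test of these counts was made.

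**Figure D1:**
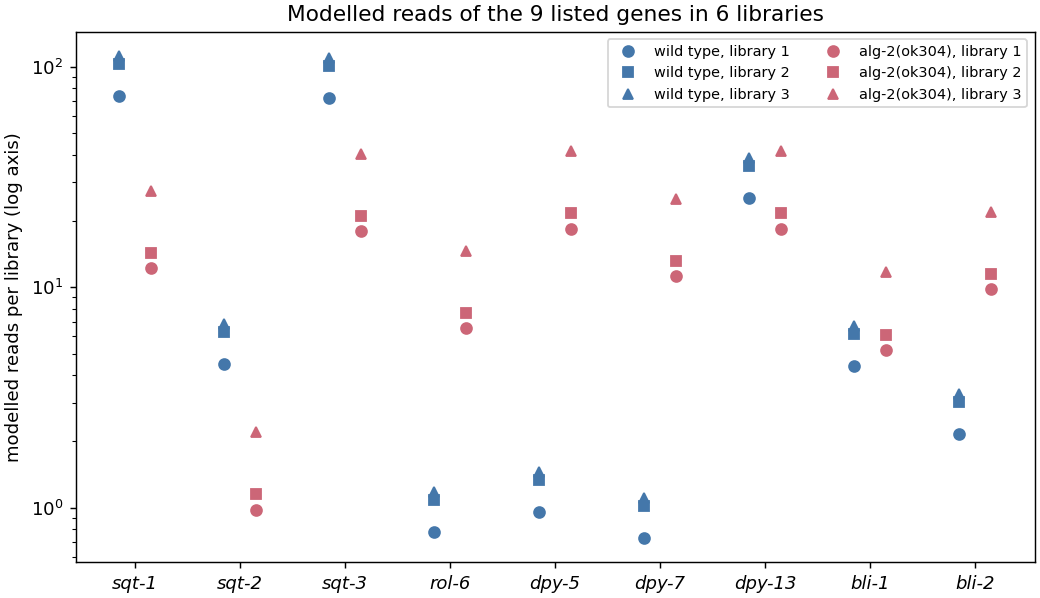
Modelled reads of the 9 listed genes (log axis) in 6 libraries, 3 per group. The libraries of a group keep the same spacing in every gene because the values are fitted, so only the distance between the groups carries information: sqt-1, sqt-2 and sqt-3 have the higher values in wild type, and dpy-5, dpy-7 and rol-6 in alg-2(ok304).

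sqt-1 and sqt-3 had the highest wild-type levels of the 9 genes. sqt-1 (WBGene00005016; WBcel235 chromosome II, 11336693 to 11337837, minus strand, 3 exons) encodes a collagen whose mutant alleles can give squat, roller or dumpy animals. It had 73.6, 103 and 112 modelled reads in libraries 1 to 3 of wild type against 12.2, 14.4 and 27.5 in those of alg-2(ok304). The sums were 288 and 54.04, a log2 ratio of -3.98, and its highest value over the scales was -1.30. sqt-1 was thus at least 2-fold lower on every scale tried, the only member for which this held.

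sqt-3 (WBGene00005018; chromosome V, 12352745 to 12354320, plus strand, 3 exons) encodes COL-1, a collagen required for viability. It had 72.3, 101 and 110 modelled reads in wild type against 18.03, 21.2 and 40.5 in alg-2(ok304). The log2 ratio of the sums, 283 and 79.7, was -3.39, with a range of -4.49 to -0.71 over the scales. An annotated non-coding RNA on the other strand, F23H12.13, shares 144 exon bases with sqt-3 and was not listed.

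sqt-2 (WBGene00005017; chromosome II, 23325 to 24458, plus strand, 3 exons), a further cuticle collagen, had the fourth highest wild-type level of the 9 genes and the lowest in alg-2(ok304). It had 4.47, 6.25 and 6.79 modelled reads in wild type against 0.981, 1.15 and 2.20 in alg-2(ok304). The sums of 17.5 and 4.34 gave a log2 ratio of -3.58, between -4.67 and -0.90 over the scales. The 3 squat genes thus lay within 0.59 of each other in log2 ratio, although their wild-type levels per kb of exon differed up to 16.2-fold. The alg-2(ok304) value of sqt-2 is a few modelled reads, and its counting error cannot be recovered from fitted values. Its log2 fold change was -3.52 with a pseudocount of 0.1 and -2.83 with a pseudocount of 2.

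The roller gene rol-6 was on the other side. rol-6 (WBGene00004397; chromosome II, 8733050 to 8734239, plus strand, 3 exons) encodes a collagen that interacts genetically with sqt-1, and its dominant roller allele is a common marker of transgenic worms. It had 0.778, 1.09 and 1.18 modelled reads in wild type against 6.53, 7.67 and 14.7 in alg-2(ok304). The log2 ratio of the sums, 3.05 and 28.9, was 1.68, from 0.59 to 4.36 over the scales. Relative to rol-6, the level of sqt-1 was 50.6-fold lower in alg-2(ok304) than in wild type, a comparison within libraries that no scale changes. The wild-type value is a few modelled reads, and its counting error cannot be recovered from fitted values.

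The dumpy genes differed among themselves. dpy-5 (WBGene00001067; chromosome I, 5432197 to 5433051, minus strand, 1 exon), whose loss makes worms short and stout, had 0.953, 1.33 and 1.45 modelled reads in wild type against 18.5, 21.7 and 41.5 in alg-2(ok304). The sums were 3.73 and 81.6, the highest log2 ratio of the 9 genes at 2.89, with a lowest value of 1.79 over the scales. Among the 2659 genes above 0 in both groups, 92.4% had a lower log2 ratio.

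dpy-7 (WBGene00001069; chromosome X, 7536467 to 7537792, minus strand, 2 exons) encodes a collagen of the annular furrows, the circumferential grooves of the cuticle. It had 0.730, 1.02 and 1.11 modelled reads in wild type against 11.2, 13.2 and 25.2 in alg-2(ok304). The log2 ratio of the sums, 2.86 and 49.5, was 2.55, and its lowest value over the scales was 1.46. dpy-5 and dpy-7 were the members at least 2-fold higher on every scale tried, and the ratio between them differed by 1.26-fold between the groups.

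dpy-13 (WBGene00001074; chromosome IV, 4235614 to 4236710, plus strand, 3 exons), another collagen gene with a dumpy mutant, was abundant in both groups. Its modelled reads were 25.5, 35.6 and 38.7 in wild type against 18.5, 21.7 and 41.4 in alg-2(ok304). The log2 ratio of the sums, 99.8 and 81.6, was -1.85, but it was 0.82 when the groups were scaled by the totals of all genes. Relative to dpy-5, dpy-13 was 26.8-fold lower in alg-2(ok304) than in wild type.

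The blister genes bli-1 and bli-2 encode collagens of the struts that hold the layers of the adult cuticle together, and their loss lets fluid collect between the layers. bli-1 (WBGene00000251; chromosome II, 10708960 to 10712156, plus strand, 5 exons) is the longest member, with 948 codons against 284 to 356 in the others. It had 4.38, 6.12 and 6.65 modelled reads in wild type against 5.21, 6.11 and 11.7 in alg-2(ok304). The sums of 17.2 and 23.0 gave a log2 ratio of -1.14, which ranged from -2.24 to 1.54 over the scales.

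bli-2 (WBGene00000252; chromosome II, 5651394 to 5652434, minus strand, 2 exons) had 2.15, 3.01 and 3.27 modelled reads in wild type against 9.81, 11.5 and 22.03 in alg-2(ok304). The sums of 8.43 and 43.4 gave a log2 ratio of 0.80, the only member under 2-fold in either direction, with a range of -0.30 to 3.48. Both genes lie inside a gene on the opposite strand, bli-1 in dph-2 (10702510 to 10714297) and bli-2 in zyg-1 (5649748 to 5654422). bli-1 shares 7 exon bases with dph-2, which had 18.1 and 87.5 modelled reads, and bli-2 shares none with zyg-1, which had 8.44 and 50.0. Whether reads were counted by strand is not given in the study's methods, and a part of these neighbours in the values of bli-1 and bli-2 was not tested.

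**Figure D2:**
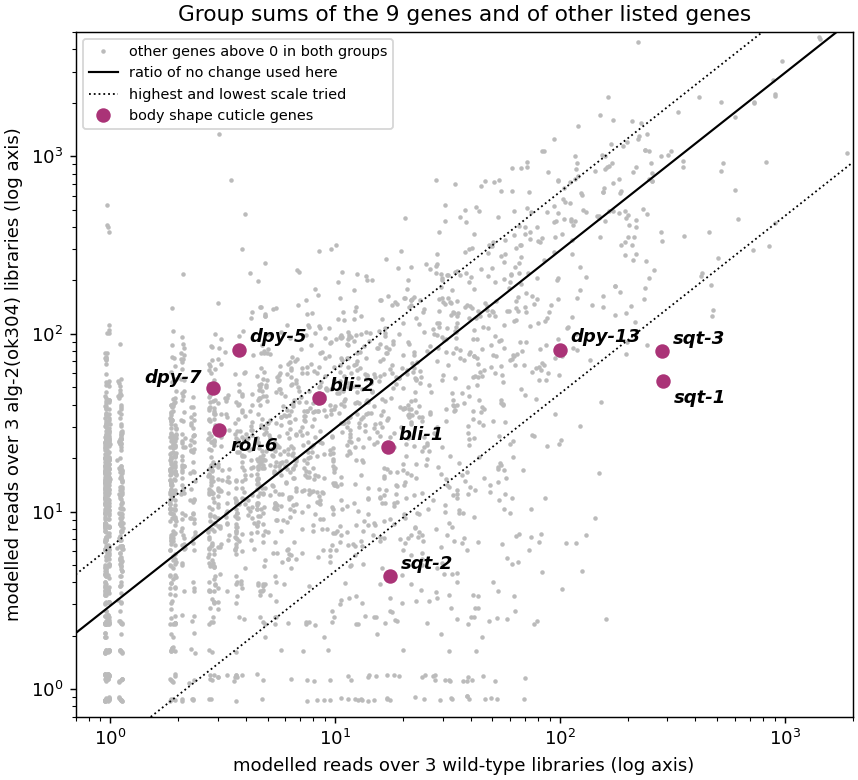
Modelled reads summed over the 3 libraries of each group, wild type on the horizontal and alg-2(ok304) on the vertical axis (both log), for the 9 genes and for the other genes above 0 in both groups, of which 41 lie beyond the axes. The solid line is the log2 ratio of 1.56 taken as no change, and the dotted lines are the outermost scales tried, -1.11 and 2.66. sqt-1, sqt-2 and sqt-3 lie below all 3 lines and dpy-5, dpy-7 and rol-6 above them.

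At the low end, sums over the 3 wild-type libraries fell into bands, with 652 genes from 0.942 to 1.13, none between 1.13 and 1.84, and 366 genes from 1.84 to 2.37. dpy-7 and rol-6 lay in the next band, from 2.72 to 3.47, and dpy-5 just above it. The median sum above 0 was 4.83 in wild type against 13.009 in alg-2(ok304). The 3 genes that were higher in alg-2(ok304) on every scale were therefore all below the wild-type median, whereas sqt-1, sqt-3 and dpy-13 were far above it.

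**Figure D3:**
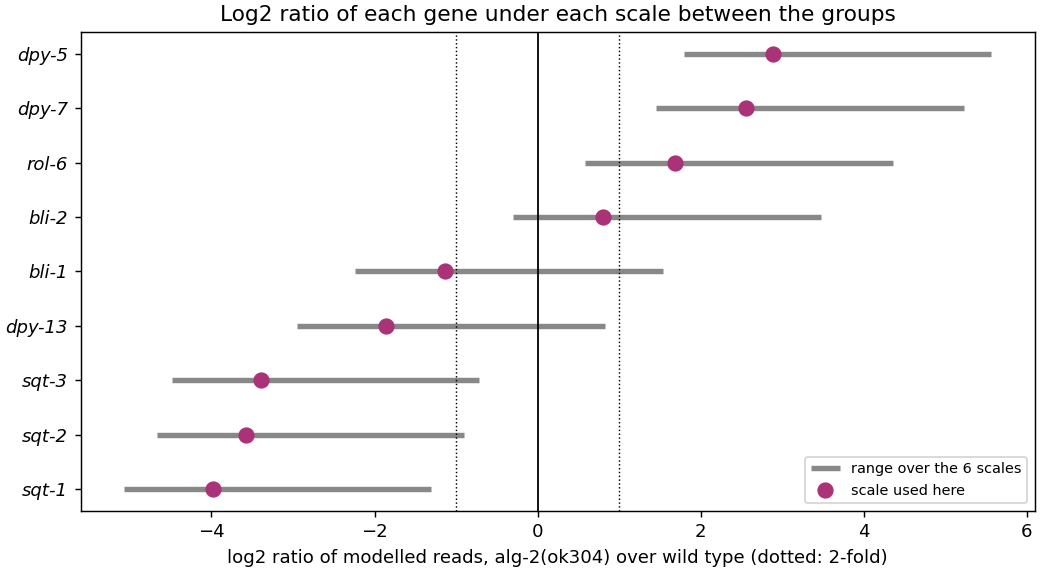
Log2 ratio between the groups, with alg-2(ok304) as numerator and in modelled reads, for each listed gene on the scale used here (points) and its range over the 6 scales (bars), with dotted lines at 2-fold. The bars of dpy-5, dpy-7 and rol-6 stay to the right of 0 and those of sqt-1, sqt-2 and sqt-3 to the left, while those of dpy-13, bli-1 and bli-2 cross it.

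Ranks within a group need no scale between the groups but come from the same modelled reads. They moved in the directions of the log2 ratios on the scale used here. This does not settle the directions of dpy-13, bli-1 and bli-2, which turned with the scale. Among the genes above 0 in wild type, sqt-1 stood at percentile 97.6, sqt-3 at 97.5 and dpy-13 at 93.1, where 100 is the highest level in modelled reads. In alg-2(ok304), sqt-1 stood at 82.8, sqt-3 at 87.6 and dpy-13 at 87.7. dpy-5 stood at percentile 43.7 in wild type against 87.8 in alg-2(ok304), dpy-7 at 37.8 and 81.6, and rol-6 at 40.1 and 71.7. These percentiles depend on how many genes are above 0, 2954 in wild type but 4491 in alg-2(ok304). Among all 5739 listed genes the rises were smaller, from 71.0 to 90.4 for dpy-5, from 68.0 to 85.6 for dpy-7 and from 69.2 to 77.9 for rol-6. Among the genes above 0, sqt-2 stood at 72.1 and 23.1. bli-1 stood at 71.9 and 65.8, and bli-2 at 59.9 and 79.7.

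Levels of different genes were compared per kb of exon. In wild type the order was sqt-1 with 276 modelled reads per kb, sqt-3 with 199, dpy-13 with 101, sqt-2 with 16.998, bli-2 with 8.48, bli-1 with 5.70, dpy-5 with 4.36, rol-6 with 2.80 and dpy-7 with 2.49. In alg-2(ok304) it was dpy-5 with 95.5, dpy-13 with 82.5, sqt-3 with 56.0, sqt-1 with 51.8, bli-2 with 43.6, dpy-7 with 43.2, rol-6 with 26.5, bli-1 with 7.64 and sqt-2 with 4.21. Which neighbours in these orders differ cannot be said without a spread between replicates. The wild-type levels ranged over more than those of alg-2(ok304), where all members but bli-1 and sqt-2 lay between 26.5 and 95.5 modelled reads per kb.

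As shares of the 9 genes per kb, sqt-1 and sqt-3 together made up 77.0% in wild type against 26.2% in alg-2(ok304). dpy-5, dpy-7 and rol-6 together made up 1.56% and 40.2%. dpy-13 held 16.4% and 20.1%, and bli-1 and bli-2 together held 2.30% and 12.5%. The outermost members in log2 ratio were sqt-1 and dpy-5, whose ratio per kb was 63.3 in wild type against 0.542 in alg-2(ok304), a 117-fold difference. That pair was picked by its log2 ratios, so the difference restates the span of 6.87. It also rests on a wild-type sum of 3.73 modelled reads for dpy-5. The set of dpy-5, dpy-7 and rol-6 was likewise grouped by its direction.

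**Figure D4:**
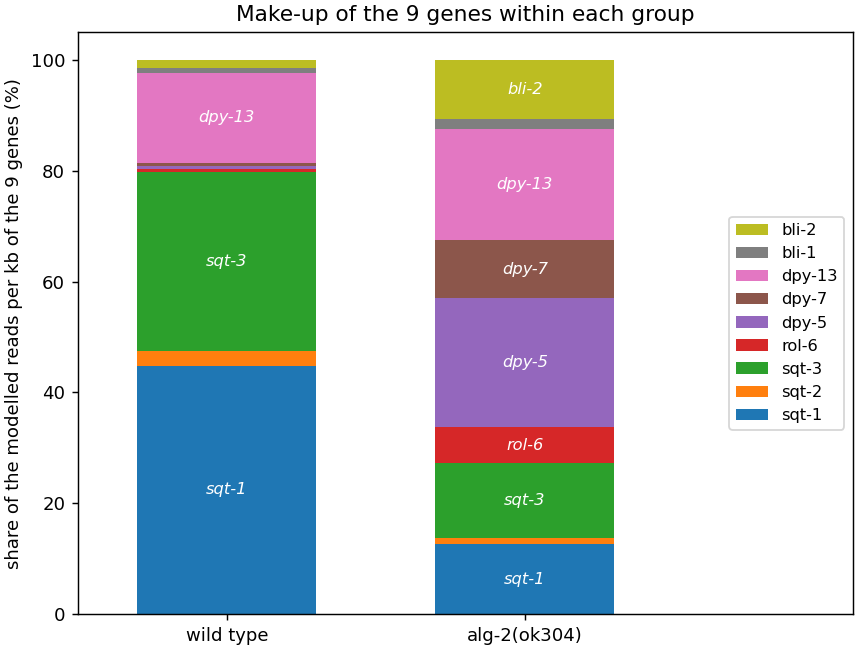
Share of each gene in the summed modelled reads per kb of exon of the 9 listed genes, as stacked bars that start at 0 and reach 100% in each group. sqt-1 and sqt-3 fill 77.0% of the wild-type bar and 26.2% of the alg-2(ok304) bar, where dpy-5, dpy-7 and rol-6 take 40.2%.

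The summed modelled reads of the 9 genes were 724 in wild type against 446 in alg-2(ok304), a log2 ratio of -2.26. Without sqt-1 and sqt-3 they were 153 and 312, a log2 ratio of -0.53. On this scale, most of the difference of the sum thus came from sqt-1 and sqt-3. Both sums turned direction over the scales. The unscaled log2 ratio of the sum of all 9 was -0.70, above the -1.11 given by the totals of all genes. The numbered col- collagen genes, 78 of which were listed, summed to 2235 and 9607 modelled reads, a log2 ratio of 0.54, with 42 at least 2-fold higher and 10 at least 2-fold lower in alg-2(ok304) of 66 above 0 in either group, beside 57.0% and 19.7% of all genes above 0 in at least 1 group. The sums of the body shape genes and of the col- genes thus differed in log2 ratio on any scale by the same distance, and this distance was not tested. The wild-type maximum among col- genes was col-153, with 258 modelled reads and listed at 0 in alg-2(ok304), and the alg-2(ok304) maximum was col-117, with 71.0 and 933.

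Of 12 other body shape collagens sought, 9 were listed, and 4 were at least 2-fold higher and 2 at least 2-fold lower in alg-2(ok304), beside 57.0% and 19.7% of all genes. dpy-14 and dpy-17 were not listed, and ram-4 had no entry in the gene names. The furrow collagens, dpy-2, dpy-3, dpy-7, dpy-8, dpy-9 and dpy-10, are known to be transcribed together early in each moulting cycle and to depend on each other for assembly into furrows. Besides dpy-7, dpy-8 had 0.986 modelled reads in wild type against 26.1 in alg-2(ok304), a log2 ratio of 3.16. dpy-9 stood at 0 in wild type but at 9.75 in alg-2(ok304), and dpy-3 at 0 and 2.39. dpy-2 had 1.86 in wild type against 0 in alg-2(ok304). Of the 5 furrow collagens listed, 4 were at least 2-fold higher in alg-2(ok304) and 1 at least 2-fold lower, beside 57.0% and 19.7% of all genes. As many as 1832 of all listed genes were, like dpy-3 and dpy-9, above 0 in alg-2(ok304) only. The values of dpy-2 and dpy-3 and the wild-type value of dpy-8 were near the lowest levels listed. The furrow collagens that were listed summed to 5.70 and 87.7 modelled reads, a log2 ratio of 2.38, which mostly restates dpy-7 and dpy-8.

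Of the other collagens of this list, rol-1 was higher in alg-2(ok304), and the rest were nearer to no change or lower. dpy-4 had 44.0 and 126 modelled reads, a log2 ratio of -0.04, and bli-6 had 41.1 and 93.8, a log2 ratio of -0.37. rol-8 had 74.7 and 60.9, a log2 ratio of -1.86, close to that of dpy-13. lon-3, whose mutants are long, had 3.09 and 4.44, a log2 ratio of -1.04. rol-1 had 0.991 and 15.2, a log2 ratio of 2.38. On the scale used here, the genes named roller, dumpy or blistered thus took either direction. The squat genes sqt-1, sqt-2 and sqt-3 were all lower on every scale tried. The directions of dpy-13, bli-1 and bli-2 turned with the scale. So did those of rol-8, lon-3, bli-6 and dpy-4, whose log2 ratios are less negative than the -2.68 of the totals of all listed genes. dpy-8 and rol-1, above the 1.68 of rol-6, were higher in alg-2(ok304) on every scale as rol-6 was.

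**Figure D5:**
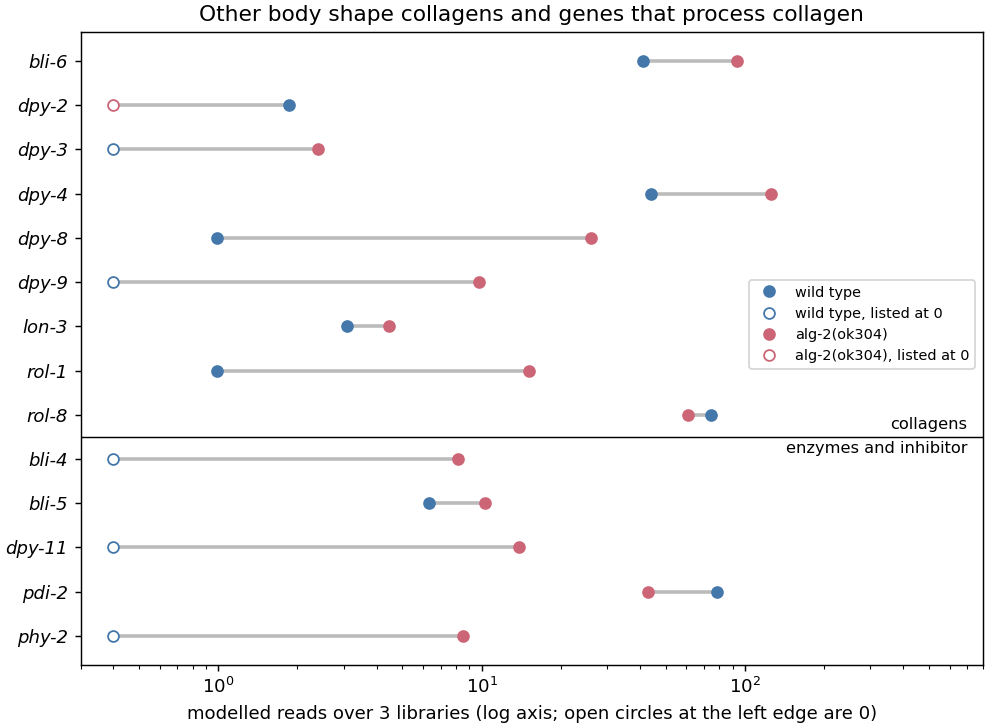
Modelled reads over 3 libraries (log axis) in wild type and alg-2(ok304) for the other body shape collagens that were listed and for genes that process collagen; open circles at the left edge mark genes listed at 0. dpy-8, dpy-9 and rol-1 stand far apart in the direction of alg-2(ok304), while rol-8 and pdi-2 have the higher value in wild type.

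Of 11 genes whose products modify, cut or cross-link cuticle collagen, or limit those steps, 5 were listed, with 3 at least 2-fold higher and 1 at least 2-fold lower in alg-2(ok304), again beside 57.0% and 19.7% of all genes. pdi-2, a protein disulfide isomerase that is also a subunit of the collagen prolyl 4-hydroxylase, had 78.4 and 42.9 modelled reads, a log2 ratio of -2.43. phy-2, a catalytic subunit of that hydroxylase, stood at 0 in wild type but at 8.49 in alg-2(ok304). dpy-11, a thioredoxin-like protein of the epidermis, was listed at 0 and 13.9, and bli-4, a proprotein convertase that cuts collagens such as those of the cuticle, at 0 and 8.14. bli-5, which holds a domain of the Kunitz type of protease inhibitors, had 6.30 and 10.3, a log2 ratio of -0.85. dpy-18, dpy-31, bli-3, mlt-7, tsp-15 and doxa-1 were not listed.

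Markers of the tissues that the lysate could contribute were read beside these results. Of 16 epidermal genes, 8 were listed and 5 were above 0 in both groups, and their sums were 196 modelled reads in wild type against 558 in alg-2(ok304), a log2 ratio of -0.05, mostly vab-10 with 126 and 496. On the scale used here, 2 of the 7 above 0 in either group were at least 2-fold higher and 4 at least 2-fold lower, beside 57.0% and 19.7% of all genes. Their median log2 fold change was -1.56. noah-1, a component of the apical extracellular matrix, had 34.7 and 11.9, a log2 ratio of -3.10, and cut-2, which encodes a cuticle protein that is not a collagen, had 0.958 and 18.9, a log2 ratio of 2.74. mlt-11 and mlt-10, named for moulting defects, had log2 ratios of -1.81 and -1.71. These are less negative than the -1.85 of dpy-13, so they turn direction with the scale as dpy-13 does. che-14 had 2.32 modelled reads in wild type against 0, and fbn-1 0 against 3.72. The factors lin-26 and elt-3, which define the epidermis, were not listed. Of 20 neuronal genes, 5 were listed, and they summed to 9.61 and 60.3 modelled reads, a log2 ratio of 1.09. These sums were less in each group than those of the 9 cuticle genes. In bulk RNA, fewer cells of a type and less RNA per cell cannot be told apart, and the part of epidermal RNA carried through the immunoprecipitation in these values was not tested. Of the lists for other tissues, the table held 13 of 15 for body wall muscle, 9 of 15 for intestine and 6 of 15 for germline, and their sums had log2 ratios of -0.75, 0.43 and 0.22. Their median log2 fold changes over genes above 0 in either group, the measure given for the epidermal genes, were -0.16, 0.38 and -0.09. Medians of the log2 ratio over genes above 0 in both groups were -0.43, -1.31 and -0.08, against -1.71 for the epidermal genes. The intestine sum in alg-2(ok304) was mostly asp-1, with 483 of 695 modelled reads. The sums of every tissue list, the epidermal and neuronal ones included, turned direction over the scales tried.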

How the data were processed

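Libraries were made from a low amount of RNA with a single-cell kit. According to the methods and the submitters' processing notes, the authors used cutadapt (2.10) for trimming, HISAT2 for alignment to WBcel235, featureCounts (Subread 2.0.0) with Ensembl release 96 for counting and edgeR (3.11) for the comparison. The deposited table is described as genes above 1 CPM in at least 2 libraries, although 953 of its genes were at 0 in all 6 library columns. Its library columns, deposited as values per library, proved to be fitted values. It also holds the authors' average log2 CPM, and p-values and FDR of the authors' own comparison, which were not used. No per-sample column was left unmapped (0).

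The planned edgeR test needs counts and was not run. For each group, the modelled reads of its 3 libraries were added up. The scale was estimated from the authors' average CPM divided by the modelled reads, over genes at 0 in the other group and at 20 or more in their own (54 in wild type, 361 in alg-2(ok304)). The plan took these averages to come from 1 group alone, but genes at 0 in both groups had averages of 0.0641 to 3.40 CPM, so the lowest quotient was used in place of a central one, a choice made after seeing the data. Of 5739 genes, 3 had an average more than 0.02 CPM under that implied by both factors. Calls used a 2-fold difference with a pseudocount of 0.5 modelled reads. Positions, exons and lengths came from Ensembl release 115 of WBcel235, where 5733 identifiers had an entry. Depth and the precision of single values are unknown. Sequences of the members were not analysed here.

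The genes named were the 10 members, the fixed lists, the col- gene with the highest level in each group, and alg-2, rpl-18 and rgef-1. The members and lists were chosen with earlier results of these data known. Alternatives were other scales, pseudocounts, a minimum of 10 modelled reads, a 4-fold threshold and ranks per kb. Python 3.11.15, numpy 2.4.6 and pandas 2.3.3 were used.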

Additional observations from a re-analysis of the deposited data

How the results depend on the processing

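With the scale used here, 3 members were at least 2-fold higher and 5 at least 2-fold lower in alg-2(ok304). Scaling by the totals of all genes gave 5 higher and 1 lower, with log2 fold changes (pseudocount 0.5) of 0.82 for dpy-13 and 1.499 for bli-1, which turned direction. Leaving ribosomal RNA genes and the genes within 2 kb of them out of the totals turned bli-2, to -0.29. It also took rol-6 under 2-fold, to 0.56, which left 2 members higher. The median quotient over genes at 0 in the other group, an alternative chosen after seeing the data, gave 3 lower and turned bli-1, to 0.27. A 4-fold threshold left 2 higher and 3 lower. Of 72 log2 fold changes of single members under the alternatives, 62 kept their direction and side of the 2-fold line, 4 turned, 4 dropped under 2-fold and 2 passed it. Pseudocounts of 0.1 and 2 and a minimum of 10 modelled reads changed no direction or side. Percentiles moved by over 5 points in 16 of 36 alternatives per kb of exon or among all listed genes. No paired analysis was possible because the columns are fitted values that hold no deviation of single libraries, and for the same reason leaving out replicates and tests by DESeq2 were not run.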
